A study of Bos taurus with 14 samples.

Results

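The transcripts described here encode ribosomal proteins of Bos taurus, both those of the cytosolic ribosome (symbols beginning with RPL for the large subunit and RPS for the small subunit) and those of the mitochondrial ribosome (MRPL and MRPS). They were taken from a custom Agilent array by symbol alone. The symbol was the gene name in the scanner files or, where that was an accession or a LOC number, the symbol in parentheses in the probe's description, and the RPS6K kinases were left out. This gave 103 genes of the 5530 symbols on the array, with 34 RPL, 24 RPS, 30 MRPL and 15 MRPS genes. Each was represented by the probe with the highest mean signal over the 14 arrays. For 7 of them (RPL8, RPL10A, RPL30, RPS10, RPS12, RPS15A and RPS28) this was a choice between 2 probes.

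The study treated bovine granulocytes and bovine endometrial stromal cells (BES) with IFNT (interferon tau, a type I interferon by which the ruminant conceptus signals its presence to the mother) or with phosphate-buffered saline (PBS), to compare the expression profiles of the treated cells. There were 4 granulocyte samples with IFNT, 4 granulocyte samples with PBS, 3 BES samples with IFNT and 3 BES samples with PBS, all incubated for 2 h. The labels state an IFNT dose of 1 mg/mL, a high concentration that could reflect a slip of unit. The labels place the granulocytes in a study both in vivo and in vitro and the BES in vitro, and name TRIzol extraction for the granulocytes only. They do not say whether the samples of a group came from different animals or cultures, so p-values here reflect no more than the variation among the samples given, which may be technical.

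Cytosolic ribosomes translate the mRNAs of the nucleus, and the genes for their proteins are expressed in nearly every cell and tend to be regulated together, in large part through a terminal oligopyrimidine tract at the start of their mRNAs. Mitochondrial ribosomes translate the few mRNAs of the mitochondrial genome, which encode subunits of the respiratory chain, and all of their proteins are encoded in the nucleus and imported. Type I interferons act on protein synthesis through induced effectors such as the kinase PKR, while mature granulocytes are short-lived cells with few mitochondria.

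What each array spot measured is set by its 60-base probe, and 7 probe sequences are shown because the results below turn on them. The probe for MRPL32, a large-subunit protein made as a precursor that is trimmed inside the mitochondrion, gave the largest rise with IFNT. In capitals are the 4 TGT or TGC triplets (cysteine codons) of its open reading frame, which form 2 pairs with 6 bases between the members of a pair.
MRPL32: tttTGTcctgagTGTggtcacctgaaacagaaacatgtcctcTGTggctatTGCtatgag
The MRPL20 probe stands for the mitochondrial members that fell, the MRPL1 probe for those that rose less, and the RPLP0 probe is shown because its listed letters are the reverse complement of the coding strand.
MRPL20: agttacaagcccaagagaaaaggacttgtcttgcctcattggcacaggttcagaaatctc
MRPL1: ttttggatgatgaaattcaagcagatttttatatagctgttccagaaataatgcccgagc
RPLP0: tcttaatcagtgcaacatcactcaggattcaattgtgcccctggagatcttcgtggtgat
A probe outside the symbol rule, described only as similar to MRPL17, is shown because the MRPL17 probe itself carries an accession that RefSeq assigns to a gene named LOC506989.
similar to MRPL17: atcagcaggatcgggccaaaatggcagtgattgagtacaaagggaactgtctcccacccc
The probes for RPL3L and RPL3, paralogues that differed in opposite directions between the cell types, have no shared stretch longer than the 6 bases in capitals. This compares the probes with each other only, and binding of either probe to the transcript of the other gene was not tested.
RPL3L: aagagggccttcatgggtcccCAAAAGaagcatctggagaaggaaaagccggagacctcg
RPL3: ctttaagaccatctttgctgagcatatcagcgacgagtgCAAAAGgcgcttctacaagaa
Judged from the translated frames after the values were seen, 5 cytosolic members (RPLP0, RPL6, RPL21, RPL26 and RPS3A) have probes of this reversed kind, all of them dim. Their values are given as probe signals and are not measures of the mRNA named. Most other probes could not be placed on a coding strand here, since their frames were not recognised.
The G and C content of the members' probes had a median of 45.0% among the cytosolic and 45.0% among the mitochondrial members, and of 43.3% among all probes.

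Levels are given as the log2 of the processed fluorescence intensity minus the 75th percentile of the same array, so a level of 0 is the signal at that percentile, and levels are compared only within a probe. Of the 103 members, 99 were well above background on all 14 arrays, and MRPL16, MRPL2, MRPS33 and MRPS7 were not. The files describe the MRPS7 probe as MIF4GD, so its identity is in doubt. No member had a saturated spot or one marked as an outlier. The BES samples were hybridised on slide 1 and the granulocyte samples on slide 2, and the effects of slide and of cell type cannot be told apart. On the granulocyte slide the PBS samples filled row 1 and the IFNT samples row 2, so row and treatment cannot be told apart there. All 11 granulocyte markers measured were detected on every granulocyte array, and 6 of them on no BES array. Markers of other leukocytes were detected too. Every granulocyte PBS array had 8 of 11 T and NK cell, 3 of 3 B cell and 6 of 6 monocyte and macrophage markers. Their summed levels there were 4.95 to 5.13, 2.33 to 2.45 and 28.3 to 30.8, against 803 to 1012 for the granulocyte markers. The share of other cells in these samples was not tested. All 8 stromal markers measured were detected on every BES array. With PBS, 6 of the 8 were lower in granulocytes, with COL1A2, COL3A1, LUM and PDGFRA on no granulocyte array. The other 2 were higher there: THY1 averaged -1.88 in granulocytes and -4.39 in BES, and VIM averaged 4.67 in granulocytes and 4.53 in BES. Of the 5 keratin and epithelial markers measured, 4 (KRT8, KRT19, CDH1 and MUC1) were on every BES array, while EPCAM was on no BES array. The summed keratin and epithelial level in BES was 217 to 219 with IFNT and 207 to 235 with PBS, in multiples of the array's 75th percentile. The summed stromal level in BES was 151 to 155 with IFNT and 141 to 144 with PBS. The share of epithelial cells in the BES samples was not tested. The interferon targets ISG15 and MX1 were raised by IFNT in both cell types, and their summed level in granulocytes was 661 to 718 with IFNT and 209 to 245 with PBS, against 24.5 to 27.2 with IFNT and 0.0944 to 0.117 with PBS in BES.

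In granulocytes, a subset of the mitochondrial ribosomal protein transcripts differed between IFNT and PBS, in both directions, as did 3 of the cytosolic ones. Array row coincides with treatment in this comparison. Among all 10379 probes tested, 44.6% passed the threshold (limma, adjusted p under 0.05), 17.2% as higher and 27.4% as lower with IFNT. Of the 41 mitochondrial members tested, 17 passed (41.5%), with 6 higher and 11 lower, a share near that of all probes. Of the 58 cytosolic members, 3 passed (5.17%), with 1 higher and 2 lower. The median log2 change was -0.10 for the mitochondrial members, 0.05 for the cytosolic members and -0.05 for all tested probes. The cytosolic median was 0.13 without PBS sample 3 and 0.00 without PBS sample 4.

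**Figure D1:**
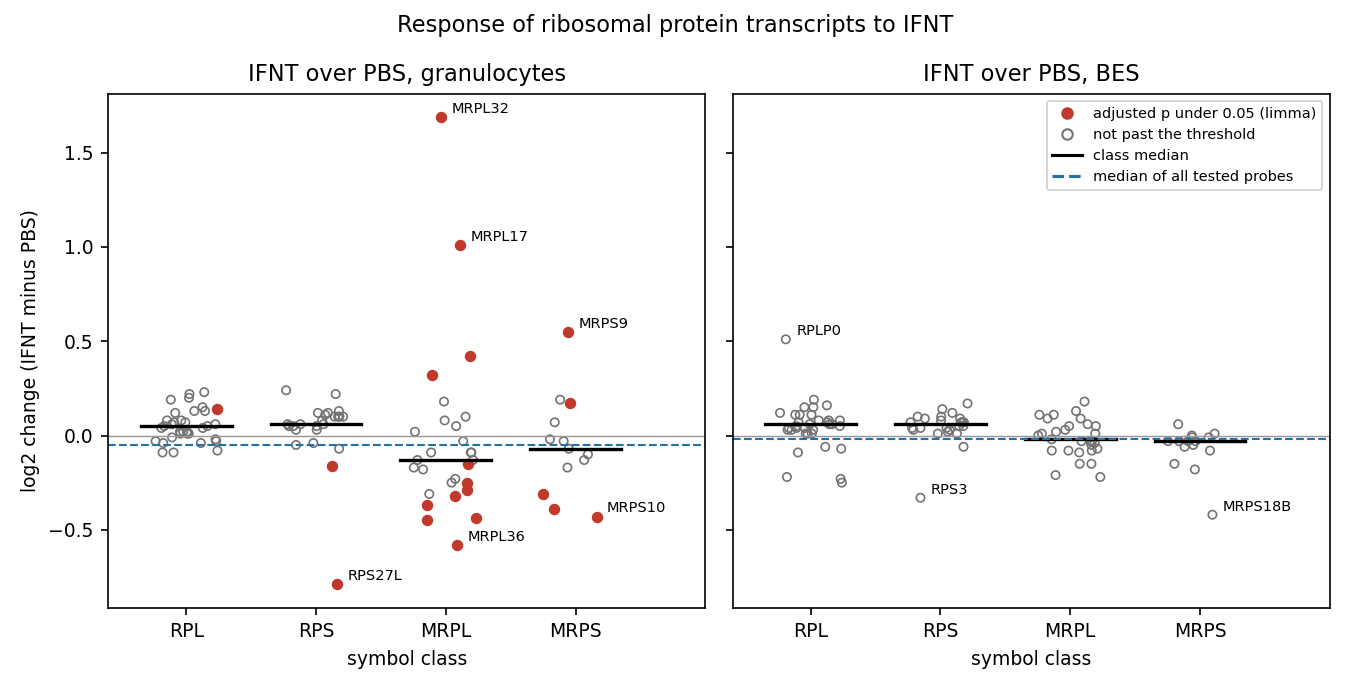
Log2 change (IFNT minus PBS, y axis) of each tested member by symbol class (x axis), in granulocytes (left, 4 against 4 arrays) and BES (right, 3 against 3 arrays). Filled points passed an adjusted p of 0.05 in limma, black bars are class medians and the dashed line is the median of all tested probes. MRPL32 at 1.69 and MRPL17 at 1.01 stand above the other members in granulocytes, and no point is filled in BES.

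The largest rise among the members was that of MRPL32. Its level was -0.12, 0.04, -0.16 and -0.05 in the granulocyte samples with IFNT, against -1.80, -1.64, -1.91 and -1.73 with PBS. All 4 IFNT samples lay far above all PBS samples, and the difference was 1.69 ± 0.07 on the log2 scale, 3.23-fold (SE, n = 4 each, limma adjusted p = 3.0e-07). MRPL17, a large-subunit protein, was the only other member that changed at least 2-fold, so that 2 of the 99 members tested did so, against 4.90% of all tested probes. Its probe gave 0.60, 0.70, 0.60 and 0.60 with IFNT, against -0.44, -0.38, -0.25 and -0.45 with PBS. The groups did not overlap, and the difference was 1.01 ± 0.06 (2.01-fold, limma adjusted p = 1.9e-06). The separate probe described as similar to MRPL17, which shares no more than 6 consecutive bases with it, had levels of 1.03, 1.31, 1.05 and 1.05 with IFNT, against -0.46, -0.39, -0.45 and -0.35 with PBS. This probe rose by 1.52 ± 0.07 (limma adjusted p = 5.7e-07), the same direction as the MRPL17 member. It was singled out after its values were seen, as was a probe described as similar to MRPL4, which rose by 1.04 ± 0.05 (limma adjusted p = 8.5e-07). They were the 2 rises among 32 tested probes described as ribosomal proteins without a symbol of the rule. Another 9 of the 32 fell, led by the probes similar to MRPL14 at -0.66 ± 0.08 and to MRPS32 at -0.56 ± 0.11 (limma adjusted p = 2.7e-04 and 0.00360).

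The other 4 rises among the mitochondrial members were smaller. MRPS9, a small-subunit protein, had levels of -3.42, -3.50, -3.43 and -3.27 with IFNT, against -4.03, -3.93, -3.97 and -3.89 with PBS, a rise of 0.55 ± 0.06 (limma adjusted p = 1.1e-04) with no overlap. With normexp background correction this rise was 0.30. MRPL1, which in bacteria has its counterpart in the L1 stalk at the tRNA exit site, stood at -1.09, -1.03, -1.0 and -1.06 with IFNT, against -1.43, -1.51, -1.33 and -1.60 with PBS. All IFNT samples were higher, by 0.42 ± 0.06 (limma adjusted p = 6.6e-04). MRPL19 rose by 0.32 ± 0.10 (limma adjusted p = 0.0236) and MRPS28 by 0.17 ± 0.06 (limma adjusted p = 0.0496), both without overlap between the groups. The MRPL19 call was lost under 4 of 19 alternatives, among them without IFNT sample 1, 2 or 3, and the MRPS28 call under 11 of 19.

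The 11 falls were of moderate size, between 0.15 and 0.58 on the log2 scale, and comprised 8 large-subunit and 3 small-subunit members. MRPL36, a small zinc-binding protein of the large subunit, had levels of -0.16, -0.21, -0.22 and -0.20 with IFNT, against 0.38, 0.36, 0.42 and 0.37 with PBS. The samples of each group lay close together and the groups far apart, and MRPL36 fell by 0.58 (SE 0.04, n = 4 each, limma adjusted p = 5.7e-06). MRPL20 stood at 0.62, 0.61, 0.68 and 0.58 with IFNT and at 1.10, 1.03, 1.21 and 0.95 with PBS. It fell by 0.45 (SE 0.06, limma adjusted p = 4.4e-04), again without overlap. MRPL24 had levels of -1.09, -0.94, -1.02 and -0.98 with IFNT, against -0.63, -0.64, -0.39 and -0.60 with PBS. Its groups did not overlap, and it fell by 0.44 (SE 0.07, limma adjusted p = 8.8e-04). Among the small-subunit members, MRPS10 stood at -3.00, -2.90, -2.79 and -2.96 with IFNT, against -2.46, -2.53, -2.39 and -2.57 with PBS, and fell by 0.43 (SE 0.06, limma adjusted p = 6.2e-04). MRPS14 fell by 0.39 (SE 0.09), MRPL49 by 0.37 (SE 0.05) and MRPL22 by 0.32 (SE 0.08). The remaining falls were those of MRPS26, MRPL43, MRPL54 and MRPL18, between 0.15 and 0.31. The granulocyte calls of these members were not followed one by one under the alternatives. Of all 17 calls, MRPL54 was the one with overlapping groups, so 16 of the called members had none, and 19 of the 41 mitochondrial members tested had groups that did not overlap, against 43.6% of all tested probes.

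**Figure D2:**
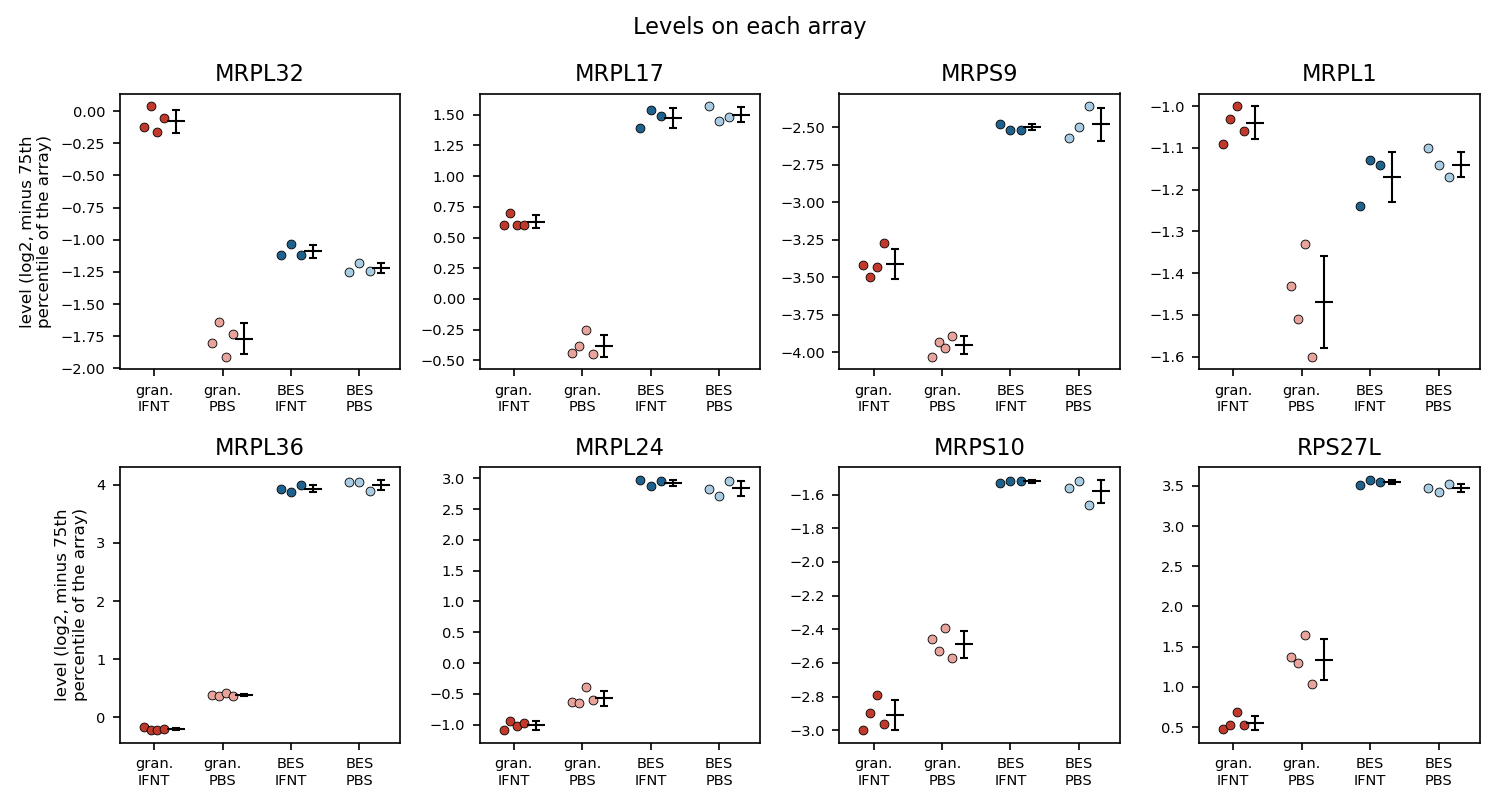
Level on each array (log2 intensity minus the array's 75th percentile, y axis, scaled separately in each panel) for 8 members in the 4 groups, with the mean and SD beside the points (n = 4 for granulocytes, n = 3 for BES). MRPL32, MRPL17, MRPS9 and MRPL1 are higher, and MRPL36, MRPL24, MRPS10 and RPS27L lower, in granulocytes with IFNT than with PBS, and the BES groups lie close together.

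Among the cytosolic members, the change that stood out was in RPS27L, a paralogue of the small-subunit protein RPS27 that in human cells is induced by p53. RPS27L had levels of 0.47, 0.53, 0.69 and 0.53 with IFNT, against 1.37, 1.30, 1.65 and 1.04 with PBS. Every IFNT sample was below every PBS sample, and RPS27L fell by 0.79 (SE 0.12, n = 4 each, 1.73-fold lower, limma adjusted p = 7.5e-04). RPS27 itself stood at -0.02, 0.04, -0.02 and -0.03 with IFNT, against 0.04, 0.20, 0.27 and 0.12 with PBS, so the groups met at 0.04. It fell by 0.16 (SE 0.06, limma adjusted p = 0.0477), a call lost under 12 of 19 alternatives. The RPS27L and RPS27 probes share no more than 5 consecutive bases, but binding of either probe to the transcript of the other gene was not tested. RPL8, a large-subunit protein near the peptidyl transferase centre, rose by 0.14 ± 0.04 (limma adjusted p = 0.0340), a call lost under 11 of 19 alternatives. One of these was its second probe, at 0.05 ± 0.10 (limma adjusted p = 0.709).

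The other 55 cytosolic members did not pass. Among the brightest probes of both subunits, RPL15 averaged 6.56 ± 0.05 with IFNT and 6.50 ± 0.14 with PBS, RPS14 averaged 6.93 ± 0.08 with IFNT and 6.97 ± 0.17 with PBS, and RPS10 averaged 7.0 ± 0.08 with IFNT and 6.94 ± 0.25 with PBS (SD, n = 4 each). The reversed RPL6 probe averaged -4.32 ± 0.08 with IFNT and -4.52 ± 0.16 with PBS (SD, n = 4 each), a difference of 0.20 ± 0.08 that did not pass (limma adjusted p = 0.0779). The members named whatever they did gave, in granulocytes, 0.04 ± 0.11 for the reversed RPLP0 probe, 0.13 ± 0.10 for RPLP1, 0.23 ± 0.08 for RPLP2 (limma adjusted p = 0.0573), -0.03 ± 0.13 for RPL4, -0.05 ± 0.08 for RPS3, -0.07 ± 0.05 for RPS6, the substrate of S6 kinases, and 0.05 ± 0.11 for RPS27A, whose protein is made fused to ubiquitin. Of the 10379 probes tested, 4357 had a positive change and 6022 a negative one. Of the 58 cytosolic members, 44 had a positive change and 14 a negative one. That tally was 29 to 29 without PBS sample 4 and 49 to 9 without PBS sample 3. All changes other than that of RPS27L lay between -0.16 and 0.24. Their median size was 0.07, against 0.20 over all tested probes. Their spread within groups was larger than that of other probes, with a median residual SD of 0.143 for cytosolic members, 0.097 for mitochondrial members and 0.104 over all tested probes.

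In that spread, 2 of the PBS samples stood out. Granulocyte PBS sample 3 was the highest of its group for 47 of the 58 cytosolic members and PBS sample 4 the lowest for 47 of them. Their median deviations from the group mean were 0.21 and -0.18, while those of all other granulocyte samples lay between -0.05 and 0.08. The mitochondrial members shared the shift of PBS sample 3 in part, with a median deviation of 0.10 and 30 of 45 members at their highest, and PBS sample 4 was at -0.04. Without PBS sample 3 the cytosolic count of calls was 6, and without PBS sample 4 it was 1. Without both it was 3, and the mitochondrial count was 16.

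**Figure D3:**
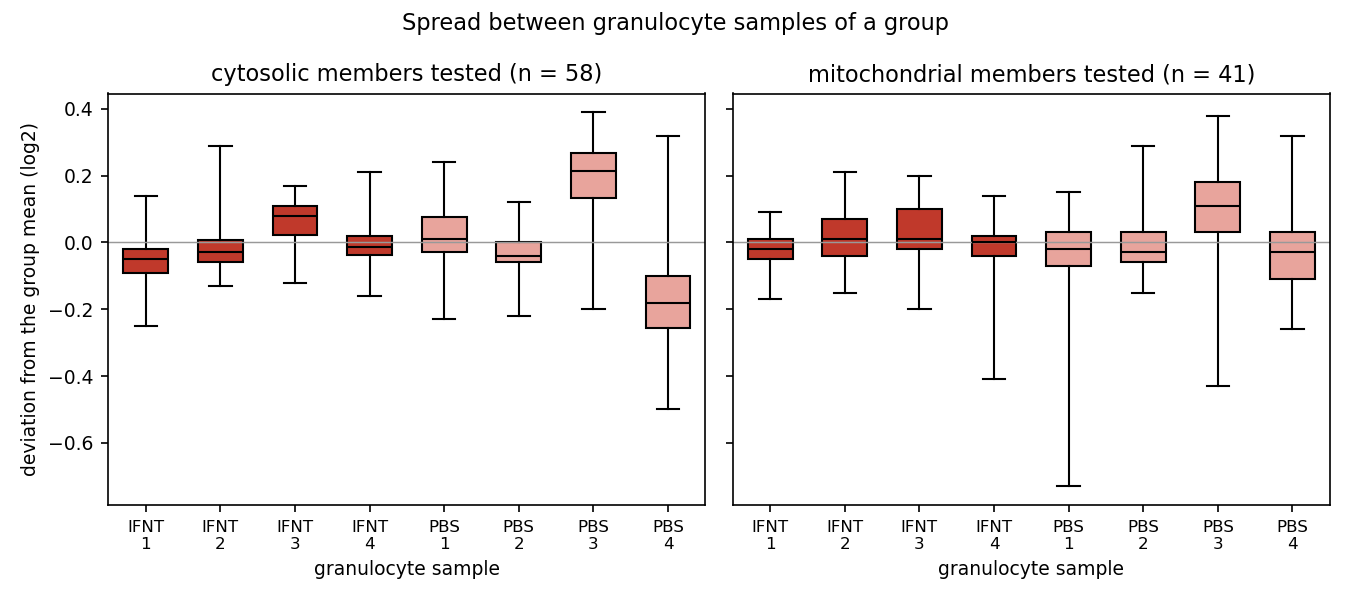
Deviation of each tested member from the mean of its group (log2, y axis) in the 8 granulocyte samples (x axis), for 58 cytosolic and 41 mitochondrial members. Boxes span the quartiles, the line is the median and the whiskers reach the extremes. PBS sample 3 lies high and PBS sample 4 low for the cytosolic members, and the IFNT samples lie closer together.

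In BES, no ribosomal protein transcript passed the threshold after 2 h of IFNT. Of the 11309 probes tested in BES, 3.66% passed (2.29% higher, 1.37% lower), against 0 of 58 cytosolic and 0 of 44 mitochondrial members tested with limma. At an unadjusted p under 0.05 there were 17 of these 102 members, 11 cytosolic and 6 mitochondrial, against 2874 of the 11309 probes tested. The median change was 0.06 for cytosolic members, -0.03 for mitochondrial members and -0.02 for all tested probes. All changes lay between -0.42 and 0.51, and the outer bounds of their 95% intervals were -0.62 and 0.84, so no interval reached 2-fold and 0 of the 102 members changed that much, against 0.867% of all tested probes.

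The nearest to the threshold was MRPS18B, one of the MRPS18 paralogues of the small subunit. Its level was -1.37, -1.31 and -1.44 with IFNT, against -0.88, -0.85 and -1.12 with PBS. All IFNT samples were lower, by a log2 difference of -0.42 ± 0.08 (n = 3 each, limma adjusted p = 0.0501), and 7 of 17 alternatives put it past the threshold. The reversed RPLP0 probe had levels of -4.14, -4.38 and -3.98 with IFNT, against -4.72, -4.85 and -4.45 with PBS, a difference of 0.51 ± 0.14 (limma adjusted p = 0.0980). RPS3, a small-subunit protein at the mRNA entry channel, stood at 4.44, 4.65 and 4.57 with IFNT and at 5.0, 4.97 and 4.68 with PBS, a difference of -0.33 ± 0.10 (limma adjusted p = 0.126). In RPLP0 and RPS3 the groups did not overlap either, and BES PBS sample 3, the one PBS sample in the same array row as the IFNT samples, was the PBS sample nearest to them. With array row as a covariate, so that PBS sample 3 was the sole basis of comparison, the differences were -0.25 for MRPS18B, 0.28 for RPLP0 and -0.12 for RPS3 (limma adjusted p = 0.300, 0.608 and 0.706). For MRPL32 the BES values were -1.12, -1.03 and -1.12 with IFNT and -1.25, -1.18 and -1.24 with PBS, a difference of 0.13 ± 0.05 (limma adjusted p = 0.148).

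Although none passed, 50 of the 58 cytosolic members were higher with IFNT in BES, most by a small amount, against 4974 of the 11309 probes tested. Without the 5 reversed probes this was 45 of 53, and the range of the cytosolic changes was -0.33 to 0.17. The median level of the 58 cytosolic members on each BES array was 5.69, 5.70 and 5.70 with IFNT, against 5.72, 5.70 and 5.65 with PBS. These array medians overlapped between the groups. Groups did not overlap for 26 of the 58 cytosolic members and 9 of the 44 mitochondrial members, against 33.5% of all tested probes. RPL36A, at 0.16 ± 0.04 (limma adjusted p = 0.101), was among the members with higher values, while RPL3 at -0.22 ± 0.07 and RPL4 at -0.23 ± 0.07 (limma adjusted p = 0.140 and 0.135) had lower ones.

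The responses of the cell types were then set against each other in 1 fit over the 14 arrays. Of the 12046 probes tested, 26.5% had responses that differed (11.7% higher and 14.8% lower in granulocytes than in BES). Of the 44 mitochondrial members tested, 16 differed, 8 in each direction, and of the 58 cytosolic members 1 did. A difference of at least 2-fold was found for 2 of these 102 members (MRPL32 and MRPL17), against 5.68% of all tested probes. The response of MRPL32 was higher in granulocytes by 1.56 ± 0.09 (limma adjusted p = 1.7e-07), that of MRPL17 by 1.04 ± 0.08 (limma adjusted p = 2.3e-06) and that of MRPS9 by 0.58 ± 0.09 (limma adjusted p = 4.6e-04). On the other side stood MRPL24 at -0.53 ± 0.10, MRPL36 at -0.51 ± 0.07 and MRPS10 at -0.48 ± 0.08. The 1 cytosolic member was RPS27L, at -0.86 ± 0.15 (limma adjusted p = 0.00136). Its BES levels were 3.51, 3.58 and 3.55 with IFNT and 3.48, 3.42 and 3.53 with PBS, so the BES groups overlapped and differed by 0.07 ± 0.05.

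MRPL23 and MRPS27 were called here although neither passed within a cell type. MRPL23 had levels of 1.68, 1.63, 1.67 and 1.64 with IFNT against 1.58, 1.56, 1.56 and 1.52 with PBS in granulocytes, and 2.34, 2.37 and 2.35 with IFNT against 2.65, 2.58 and 2.48 with PBS in BES. The values were higher with IFNT in granulocytes and lower in BES, and the responses differed by 0.32 ± 0.06 (limma adjusted p = 0.00161). MRPS27 stood at 0.54, 0.58, 0.46 and 0.52 with IFNT against 0.19, 0.38, 0.27 and 0.49 with PBS in granulocytes, and at 2.63, 2.73 and 2.66 with IFNT against 2.85, 2.96 and 2.74 with PBS in BES. Its responses differed by 0.37 ± 0.10 (limma adjusted p = 0.0174), and this call was lost without BES PBS sample 2.

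With PBS alone, the mitochondrial ribosomal protein transcripts were lower in granulocytes than in BES, most of them by a large factor. Of all 11805 probes tested between the cell types, 91.4% passed (46.7% higher and 44.7% lower in granulocytes). Of the 43 mitochondrial members tested, 40 passed, 37 of them lower and 3 higher. Of the 58 cytosolic members, 41 passed, 33 of them lower and 8 higher. The median log2 difference was -1.88 (3.68-fold lower in granulocytes) for the mitochondrial members, -0.40 for the cytosolic members and 0.03 for all tested probes. These are differences relative to each array's 75th percentile, in bulk samples in which fewer expressing cells and less RNA per cell cannot be told apart.

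**Figure D4:**
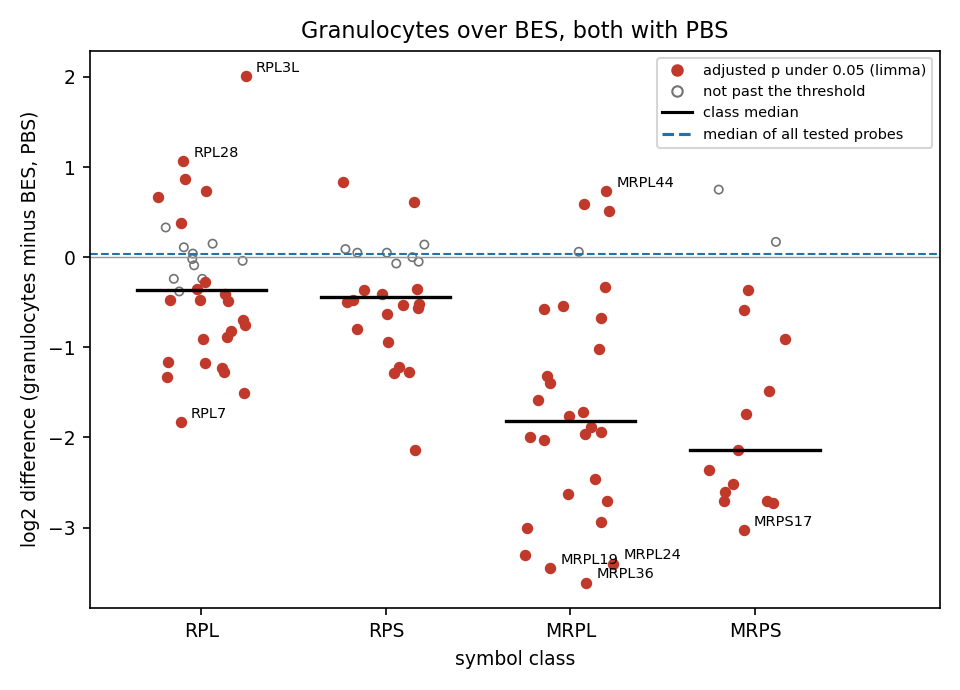
Log2 difference of each tested member between granulocytes and BES, both with PBS (y axis), by symbol class (x axis, 4 against 3 arrays). Filled points passed an adjusted p of 0.05 in limma, black bars are class medians and the dashed line is the median of all tested probes. The MRPL and MRPS medians, at -1.82 and -2.14, lie well below the RPL and RPS medians, at -0.36 and -0.44.

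The member furthest down was MRPL36, with levels of 0.38, 0.36, 0.42 and 0.37 in granulocytes and 4.05, 4.05 and 3.89 in BES. No granulocyte sample came near a BES sample, and the difference was -3.61 ± 0.06, 12.2-fold lower (n = 4 and 3, limma adjusted p = 1.5e-09). MRPL19 was 10.9-fold lower (-3.45 ± 0.11), MRPL24 10.6-fold lower (-3.40 ± 0.09) and MRPL13 9.92-fold lower (-3.31 ± 0.08). In the small subunit, MRPS17 was 8.20-fold lower (-3.03 ± 0.08), MRPS23 6.66-fold lower and MRPS34 6.54-fold lower. MRPL35 was 8.01-fold lower with a wider error (-3.00 ± 0.26), and MRPL18 7.65-fold lower (-2.94 ± 0.07). Granulocyte and BES samples did not overlap for 40 of the 43 mitochondrial and 40 of the 58 cytosolic members, against 91.0% of all tested probes. Of the 43 mitochondrial members tested, 30 differed at least 2-fold, against 70.3% of all tested probes and 13 of the 58 cytosolic members.

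MRPL32 and MRPL17, which rose most with IFNT in granulocytes, were also lower there than in BES with PBS. MRPL32 was at -1.80, -1.64, -1.91 and -1.73 in granulocytes with PBS and at -1.25, -1.18 and -1.24 in BES with PBS, a difference of -0.54 ± 0.07. Its IFNT levels in granulocytes, given above, lay above every BES sample. MRPL17 differed by -1.88 ± 0.07, and its granulocyte samples with IFNT remained below all BES samples, which lay between 1.39 and 1.57. MRPS24, a small-subunit protein, averaged 0.18 ± 0.09 in granulocytes and 2.79 ± 0.04 in BES (SD, n = 4 and 3). The exceptions that were higher in granulocytes were MRPL44 by 0.73 ± 0.07, MRPL15 by 0.59 ± 0.17 and MRPL38 by 0.51 ± 0.09.

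Among the cytosolic members the largest difference upward was in RPL3L, the paralogue of RPL3 known for its expression in heart and skeletal muscle. RPL3L had levels of -4.38, -4.47, -4.21 and -3.93 in granulocytes and -6.47, -6.00 and -6.29 in BES, a difference of 2.01 ± 0.16 (4.02-fold, limma adjusted p = 8.5e-06). RPL3, which reaches the peptidyl transferase centre, stood at 1.78, 2.07, 1.82 and 2.18 in granulocytes and at 3.31, 3.37 and 3.19 in BES. It was lower in every granulocyte sample, by a log2 difference of -1.33 ± 0.11 (limma adjusted p = 1.3e-05). RPL28 was higher in granulocytes by 1.07 ± 0.10, RPS12 by 0.83 ± 0.11, RPL23 by 0.67 ± 0.14 and RPL37 by 0.38 ± 0.14. The other 3 probes that were higher, RPL26 by 0.87 ± 0.11, RPL21 by 0.74 ± 0.09 and RPS3A by 0.61 ± 0.10, are reversed probes and not measures of those mRNAs. Without the 5 reversed probes, 5 of 53 cytosolic members were higher and 32 lower, with a median of -0.47. RPL3L, RPL28 and RPS12 were also dim, and the strand of the RPL28 and RPS12 probes was not determined.

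The largest cytosolic differences downward were those of RPS27L at -2.14 ± 0.13, RPL7 at -1.83 ± 0.07, RPL4 at -1.51 ± 0.12 and, after RPL3, RPS2 at -1.29 ± 0.07. RPS27 was at -1.27 ± 0.07. RPLP2 was lower by a log2 difference of -0.89 ± 0.09, while the reversed RPLP0 probe at 0.33 ± 0.14, RPLP1 at 0.15 ± 0.12, RPS3 at 0.05 ± 0.10 and RPS6 at -0.05 ± 0.07 did not pass. RPS27A was lower, at -0.47 ± 0.13. For some members the choice of probe set the answer: the 2 RPS15A probes, which share no more than 5 consecutive bases, gave 0.09 ± 0.12 and -5.17 ± 0.15, and the 2 RPL30 probes gave -0.02 ± 0.13 and -1.13 ± 0.11. For RPL8, RPL10A, RPS12 and RPS28 both probes gave the same sign. The RPS10 probes did too, but they share 57 of their 60 bases.

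The cytosolic differences between the cell types depended on how the arrays were scaled, and the mitochondrial ones less so. With quantile normalization the median of the cytosolic members was -1.38 in place of -0.40, with 51 lower and 6 higher, and RPL23 turned to -0.42. The mitochondrial median was then -2.0, with 37 lower and 2 higher. The median of all tested probes was -0.21 with quantile normalization, 0.46 with normexp background correction and -0.12 with median scaling, and the mitochondrial median was -1.72 with normexp and -2.03 with median scaling.

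Other genes of the translation machinery give the setting for these values. In granulocytes with IFNT, 12 of 25 initiation factors tested passed, 4 higher and 8 lower. On the elongation and TOP mRNA list, 1 of 8 genes passed. Against the 44.6% of all tested probes that passed, the initiation, biogenesis and mitochondrial translation lists had shares near the background. EIF2AK2, which encodes PKR, rose by 1.93 ± 0.06, EIF4E, the cap-binding protein, by 1.43 ± 0.07, while EIF4A3 fell by 0.51 (SE 0.04), each in limma at an adjusted p of 2.3e-05 or less. EEF1E1, placed on the elongation list by its symbol, was the 1 gene lower there. FAU, which encodes the ribosomal protein eS30 outside the symbol rule, fell by 0.17 (SE 0.06, limma adjusted p = 0.0367). Of 34 ribosome biogenesis genes tested, 4 rose and 12 fell, with NOP16 at -0.37 ± 0.05, TSR2 at -0.42 ± 0.06 and EBNA1BP2 at -0.38 ± 0.05. Of 22 mitochondrial translation and assembly genes, 4 rose and 7 fell. TFAM, which packages and transcribes mitochondrial DNA, rose by 1.64 ± 0.07, MALSU1, an assembly factor of the mitochondrial large subunit, rose by 0.59 ± 0.06, and NGRN, needed for the mitochondrial large rRNA, fell by 0.49 (SE 0.04). In BES the 3 genes that passed across these lists were EIF2AK2 at 1.91 ± 0.09 (limma adjusted p = 9.7e-05), TFAM at 0.44 ± 0.05 (limma adjusted p = 0.00701) and TAF1A, a subunit of the RNA polymerase I selectivity factor, at 0.34 ± 0.05 (limma adjusted p = 0.0240).

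Between the cell types with PBS, 91.4% of all tested probes passed (46.7% higher and 44.7% lower in granulocytes), and the lists are described against that share. Of 35 biogenesis genes, 28 were lower and 4 higher in granulocytes, with a median log2 difference of -1.0, and of 23 mitochondrial translation genes 15 were lower and 5 higher, with a median of -1.35. Among the biogenesis genes PNO1 was at -3.29 ± 0.07 and TAF1B at -3.00 ± 0.06, while POLR1B, an RNA polymerase I subunit, was at 6.23 ± 0.08. TFB1M, which methylates the mitochondrial small rRNA, was at 5.92 ± 0.05, DAP3, a protein of the mitochondrial small subunit under another symbol, at 3.49 ± 0.06 and CARS2 at -2.81 ± 0.06. Each gene of these lists was read from its probe of highest mean signal, and the strand of these probes is not reported here. Of 8 genes on the elongation and TOP mRNA list, 6 were lower and 2 higher (median -1.66), with EEF1E1 at -2.44 ± 0.06, EEF1A1 at -1.44 ± 0.06 and EEF2 at -1.66 ± 0.07. Initiation factors were split, with 13 of 24 lower and 10 higher (median -0.22), and RACK1, a small-subunit protein outside the symbol rule, was at -1.10 ± 0.05 while FAU was at 1.01 ± 0.06.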

How the data were processed

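Total RNA of 14 samples was labelled with Cy3 and hybridised to single-colour arrays. Per the file headers and the submitters' processing notes, the deposited scanner files were made with Agilent Feature Extraction 9.5 and hold a processed fluorescence intensity for each spot. The authors' deposited value table holds log2 values, each column being the log2 processed intensity minus 1 constant per array, and was used as an alternative. Each array had 15208 non-control probes and 536 control spots, and control spots were left out. The 75th percentile was an intensity of 1009 to 1491 on granulocyte arrays and 2564 to 3173 on BES arrays, and arrays of 1 group correlated at 0.991 to 0.996 across probes, which are not replicates. The number of arrays limits the precision.

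From the processed intensity, log2 values were taken relative to the 75th percentile over the non-control probes of the same array, without spots marked as outliers. A probe entered a test when its spots were well above background on 3 or more arrays (BES, and the contrast of cell types) or on 4 or more (granulocytes), or by either condition for the difference of the responses. The comparisons used limma 3.58.1 under R 4.3.3 (two-sided moderated test) with Benjamini-Hochberg adjustment over all probes tested and a threshold of 0.05. The fits were tested on simulated data. Alternatives covered background correction, scaling, the authors' table, the filter, saturated spots, the prior, the choice of probe, a replicate block, array row, a joint fit and leaving out each sample.

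Gene names come from the files. By accession in the bovine RefSeq table (ARS-UCD2.0), 56 members had the same symbol, 46 were not matched and 1 (MRPL17) had another. A further 34 probes are described as ribosomal proteins but carry no symbol of the rule. The members, gene lists and alternatives were chosen with earlier results of these data known. Named genes were, per comparison, the 8 largest rises and 8 largest falls past the threshold, the smallest unadjusted p of each class, the highest and lowest mean level of each class, preset subunits and paralogues, and up to 3 genes per translation list, and others are counted or named beside a count. The files give no genome build, so no position is stated.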

Additional observations from a re-analysis of the deposited data

Results flagged for a closer look

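Within the granulocyte groups of 4, a sample stood far from the other 3 in 4 of 88 sets of values tested, and chance flags about 1 in 20 groups. MRPL17 was 0.70 in IFNT sample 2, against 0.60 in each of the others. RPS27 was 0.04 in IFNT sample 2, against -0.03 to -0.02 in the others. MRPL24 was -0.39 in PBS sample 3, against -0.64 to -0.60 in the others. MRPL43 was -1.23 in PBS sample 1, against -1.07 to -1.04 in the others.

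The response to IFNT differed between the cell types, by the test of that difference in limma, for 17 of the 102 members tested. This was 16.7% of them, against 26.5% of all 12046 probes tested. The response was higher in granulocytes than in BES for MRPL32 by 1.56 (SE 0.09), MRPL17 by 1.04 (SE 0.08), MRPS9 by 0.58 (SE 0.09), MRPL1 by 0.46 (SE 0.08), MRPL19 by 0.40 (SE 0.12), MRPS27 by 0.37 (SE 0.10), MRPL23 by 0.32 (SE 0.06) and MRPS28 by 0.31 (SE 0.09). It was lower in granulocytes for RPS27L at -0.86 (SE 0.15), MRPL24 at -0.53 (SE 0.10), MRPL36 at -0.51 (SE 0.07), MRPS10 at -0.48 (SE 0.08), MRPS14 at -0.39 (SE 0.13), MRPL20 at -0.36 (SE 0.08), MRPL43 at -0.30 (SE 0.07), MRPL49 at -0.29 (SE 0.07) and MRPS26 at -0.24 (SE 0.08). The call was lost under 11 of 24 alternatives for MRPS14, 10 for MRPL19, 4 for MRPS28 and 1 for MRPS27, and under none for MRPL32, MRPL17, MRPS9, MRPL1, MRPL23, RPS27L, MRPL24, MRPL36, MRPS10, MRPL20, MRPL43 and MRPL49. MRPS26 was not among the genes named by the rule and was not followed under the alternatives.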

How the results depend on the processing

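For IFNT in granulocytes the mitochondrial count of 17 was 13 to 24 under other processing and 13 to 20 with 1 sample left out, and the cytosolic count of 3 was 1 with median scaling or without a filter on dim probes and 1 to 6 with 1 sample left out. It was 1 without PBS sample 2 or 4 or without IFNT sample 2, 3 or 4, and 6 without PBS sample 3. In BES the mitochondrial count of 0 was 1 with normexp, quantile normalization, median scaling or the replicate block, and 2 with a robust prior fitted to the intensity trend or with all 14 arrays in 1 fit. The cytosolic count of 0 was 4 with that prior and 1 with the replicate block, and both counts were 0 to 1 with 1 sample left out, the 1 in each arising without PBS sample 3. For the difference of the responses the mitochondrial count of 16 was 12 to 19, and the cytosolic count of 1 was 2 with quantile normalization or the replicate block and 1 to 3 with 1 sample left out (3 without BES PBS sample 3). Between the cell types the counts were 40 to 57 for cytosolic and 39 to 42 for mitochondrial members under other processing, and 37 to 44 and 40 to 41 with 1 sample left out. The 1 reversal among 1084 values of named genes was RPL23 between the cell types, at -0.42 with quantile normalization, and the cause was not tested. In all, 1017 of these values kept their call, 52 lost it and 14 gained one. The choices to leave out granulocyte PBS samples 3 and 4 together, and the 5 reversed probes, were made after seeing the data. Whether same-numbered samples were paired is not stated in the labels and could not be settled. Correlations of the deviations of same-numbered samples were 0.14, 0.18, 0.20 and -0.12 in granulocytes and 0.05, 0.06 and -0.01 in BES. Those of differently numbered samples were -0.43 to 0.32 in granulocytes and -0.12 to 0.09 in BES. With the replicate block the granulocyte counts were again 3 and 17, but 1 and 15 of these calls were shared with the fit without it (RPL8 and RPS27 were lost). It gave 19 mitochondrial members for the difference of the responses. Over all probes in BES, 414 calls became 1011 with the trended prior, 189 without a filter, 149 with array row as a covariate and 183 to 534 with 1 sample left out. A row covariate could not be fitted in granulocytes. The dim probes of MRPL16, MRPL2, MRPS33 and MRPS7 limit what can be said of those genes, and that of MRPS7 is also described in the files as MIF4GD. A change that misses the threshold in BES does not show that a transcript was stable.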
